A study of Mus musculus with 12 samples.

Results

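The genes described here are 53 genes of mitosis and chromosome segregation. They were given as a list of symbols, and a listed gene was followed when its mean over all 12 libraries was 1 FPKM or more (FPKM are fragments counted for a gene per length of its transcript and per depth of the library, a level already corrected for gene length). All 53 symbols were among the 23234 genes of the expression table and 51 reached that mean, as did 10305 genes of the table in all. Total RNA was sequenced from primary mouse acute myeloid leukaemia cells of genotype NRASG12V/Mll-AF9 on an (FVB/n X C57/BL/6J) F1 background, so that every group, the control included, carried both oncogenes. The cells were kept for 24 h in medium with serum and GM-CSF, a myeloid growth factor, together with the DMSO vehicle, 20 µM PD325901 (a MEK inhibitor), 26 µM RAD001 (everolimus, an mTORC1 inhibitor) or 20 µM GDC0941 (a class I PI3K inhibitor). Each of the 4 groups had 3 libraries, numbered 1 to 3. What the numbers mark (cultures, animals or days) is not stated in the labels, and p-values then measure only the spread between these libraries, which may be technical. The 3 compounds have unlike structures and the doses differ, so the inhibitors were set side by side and not compared dose for dose.

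Most of these genes are made in waves. Cells silence them in early G1, begin to transcribe them late in S phase and reach a peak in G2 and mitosis, after which the proteins are destroyed by the anaphase-promoting complex. Repression in resting cells is carried out by the DREAM complex, and activation in dividing cells by B-MYB and FOXM1 together with the MuvB core. MuvB binds a short promoter element, the cell cycle genes homology region (CHR), and the factor NF-Y binds CCAAT boxes that stand upstream of it. In myeloid leukaemia cells, as in other dividing cells, the RNA of these genes is commonly read as a measure of how many cells are dividing.

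Promoter sequences are shown because they let a reader see these elements in genes that fell with RAD001 and GDC0941 and in genes that did not fall with these inhibitors. RefSeq promoters of the mouse build GRCm38.p6, from 250 bases before to 50 bases after the annotated start, were given for 44 of the 53 genes (49 promoters). The 9 other genes were Aurkb, Ccna2, Cdc25c, Foxm1, Incenp, Kif20a, Smc4, Spc24 and Tpx2. Below are 150 bases before and 30 bases after the start, on the strand of the gene, for Cdk1, Ccnb2 and Cdc20, whose RNA fell with RAD001 and GDC0941, and for Bub3 and Pttg1, which stood apart from them. Capitals mark CCAAT and the CHR letters TTTGAA or TTCGAA, each searched on both strands (so that ATTGG and TTCAAA are also in capitals). The windows are chr10:69352883-69353062 (minus strand) for Cdk1, chr9:70421525-70421704 (minus strand) for Ccnb2, chr4:118437314-118437493 (minus strand) for Cdc20, chr7:131560220-131560399 (plus strand) for Bub3 and chr11:43425952-43426131 (minus strand) for Pttg1.
Cdk1: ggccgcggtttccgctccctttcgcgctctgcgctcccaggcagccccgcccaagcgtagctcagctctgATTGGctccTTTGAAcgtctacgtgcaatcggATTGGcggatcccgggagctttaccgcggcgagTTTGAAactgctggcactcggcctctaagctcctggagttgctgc
Ccnb2: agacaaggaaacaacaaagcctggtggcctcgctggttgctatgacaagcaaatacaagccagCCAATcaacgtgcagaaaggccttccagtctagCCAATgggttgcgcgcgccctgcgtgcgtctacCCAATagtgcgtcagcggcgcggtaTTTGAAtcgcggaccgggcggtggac
Cdc20: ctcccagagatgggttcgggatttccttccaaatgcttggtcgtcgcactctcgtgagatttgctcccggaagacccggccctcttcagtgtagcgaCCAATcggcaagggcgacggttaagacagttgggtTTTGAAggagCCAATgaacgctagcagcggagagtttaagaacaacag
Bub3: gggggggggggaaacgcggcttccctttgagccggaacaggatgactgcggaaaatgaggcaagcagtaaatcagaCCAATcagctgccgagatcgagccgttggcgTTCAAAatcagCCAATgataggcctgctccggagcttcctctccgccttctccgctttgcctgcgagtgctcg
Pttg1: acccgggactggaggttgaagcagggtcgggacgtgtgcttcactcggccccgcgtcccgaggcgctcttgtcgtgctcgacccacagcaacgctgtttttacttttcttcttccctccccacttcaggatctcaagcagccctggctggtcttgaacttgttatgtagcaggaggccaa

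The Ccnb2 window held 3 CCAAT boxes, whose first bases lay 87, 54 and 21 bases before the start, and a CHR match beginning at base 5 of the transcript. Cdk1 held 2 of each, Cdc20 2 CCAAT boxes and a CHR match 18 bases before the start, and Bub3 2 CCAAT boxes with a CHR match between them, 43 bases before the start. No match stood in the printed Pttg1 window. Over the 49 full promoters of these genes, 37 (75.5%) held CCAAT, against 37.4% of the 32851 promoters of the table. A CHR match stood in 36 (73.5%), against 19.2%, and both motifs in 32 (65.3%), against 7.53%. Of the CHR letters, TTTGAA was in 34 promoters (69.4%, against 17.9%) and TTCGAA in 4 (8.16%, against 1.56%), and 23 promoters (46.9%, against 11.7%) had at least 2 CCAAT boxes. The boxes were most frequent 75 to 51 bases before the start, where 30.6% of the promoters had one. That was also the most frequent bin over all promoters of the table, at 6.99%. The CHR matches were most frequent in the first 25 bases from the start, with 28.6%, against 1.43% of all promoters. The genes with neither motif in any matched promoter were Birc5, Kif18a, Mad2l1, Ncaph, Nuf2, Nusap1, Plk4 and Pttg1. All of them but Kif18a, which was below the filter, and Pttg1 fell with each inhibitor. A match is a run of letters and not a measured binding site. Bub3, Ect2, Prc1 and Cenpk have more than 1 promoter in the table, and those of Bub3, Ect2 and Prc1 overlap. The table of expression values was made on another build (mm9) and gives symbols only.

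**Figure D1:**
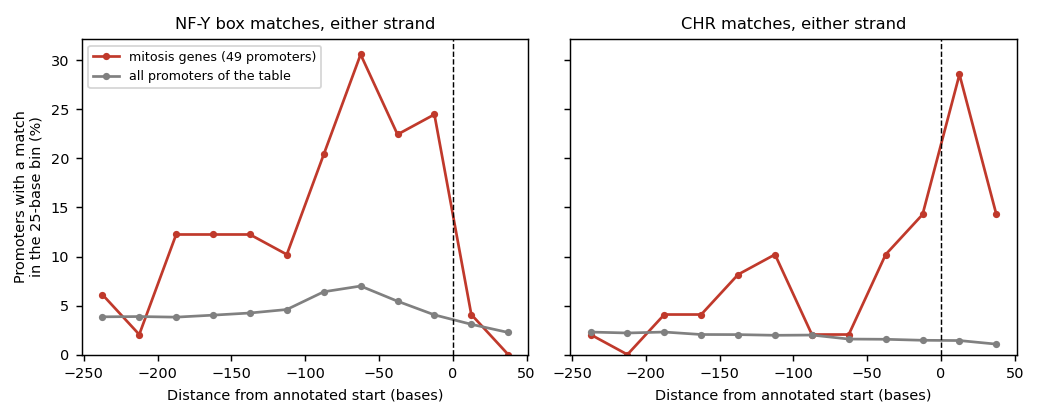
Percentage of promoters with an NF-Y box (left) or a CHR match (right) in each 25-base bin, plotted against the distance from the annotated start in bases, for the 49 promoters of the mitosis genes (red) and all promoters of the table (grey). The red lines peak at 30.6% before the start for the NF-Y box and at 28.6% just after it for CHR, where the grey lines stand at 6.99% and 1.43%.

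The 12 libraries held 462335 to 587581 FPKM in sum, and their relative depth, estimated from the spacing of low FPKM values, ran from 0.85 to 1.21. No counts were used, so no precision from counting was computed. Across genes, libraries correlated at a Spearman rho of 0.966 to 0.996 when of one group and of 0.875 to 0.965 when not. The leukaemia cells showed their myeloid markers, with Itgam at 336 and Csf1r at 152 FPKM in DMSO, and Hoxa9 (2.02) and Meis1 (2.64), which MLL fusions sustain, at low levels. Apart from the megakaryocyte genes, markers of other cell types were low, but some moved with the groups. The 8 T and NK cell genes summed to 2.23 to 8.04 FPKM in DMSO, 6.22 to 13.2 with PD325901, 0.373 to 4.46 with RAD001 and 0.228 to 2.22 with GDC0941, and Cd3d rose with PD325901 (1.27). The 5 B cell genes summed to 4.59 to 5.96, 6.76 to 8.13, 0.961 to 2.13 and 0.643 to 2.23 in the same order, and Cd79b fell with RAD001 (-1.40) and GDC0941 (-1.49). Pax5, a defining B cell gene, was listed at 0 in every group, and Ms4a1, which B cells carry at their surface, in DMSO. The 5 erythroid genes, none of them above the filter, summed to 0.548 to 1.70, 0.349 to 3.32, 0.762 to 1.94 and 0.101 to 1.62. The 6 stromal and endothelial genes summed to 12.8 to 17.5, 7.75 to 11.2, 6.97 to 8.40 and 1.94 to 2.62, nearly all from Pecam1, which leukocytes also express and which fell with each inhibitor (-0.65, -0.85 and -2.31). The 4 megakaryocyte genes summed to 77.1 to 133, 10.8 to 35.6, 215 to 278 and 3.72 to 4.76, of which nearly all was Pf4, a chemokine that myeloid cells can also express and which changed by -2.50, 1.35 and -4.23. The part of these cells in the results on the mitosis genes was not tested.

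Replicate 1 stood apart from the other libraries of its group with RAD001 and with GDC0941. The 51 genes summed to 633.3, 648.3 and 648.0 FPKM in DMSO replicates 1, 2 and 3 (mean 643.2 ± 8.57, SD, n = 3). They summed to 294.8, 301.9 and 321.3 with PD325901 (306.0 ± 13.7), to 290.3, 180.4 and 179.4 with RAD001 (216.7 ± 63.8), and to 400.3, 200.2 and 214.1 with GDC0941 (271.5 ± 112). All 9 inhibitor libraries lay below all 3 DMSO libraries. RAD001 replicate 1 summed to 1.61 times the mean of the other RAD001 libraries and was the highest of the 3 for 50 of the 51 genes (for 45.4% of all genes tested). GDC0941 replicate 1 summed to 1.93 times the mean of the others and was the highest for all 51 (47.5% of all genes tested). Neither DMSO nor PD325901 had such a library. However, PD325901 replicate 3 was the highest of its group for 35 genes (32.4% of all genes tested) and PD325901 replicate 1 the lowest for 33 (33.4%). The relative depth of replicate 1 was 0.85 with RAD001, the lowest of all 12, and 0.979 with GDC0941, equal to that of GDC0941 replicate 2. The T and NK cell genes were lowest in replicate 1 of each of the 4 groups, at 0.373 FPKM in sum with RAD001 (4.22 and 4.46 in replicates 2 and 3), 0.228 with GDC0941 (2.05 and 2.22), 2.23 in DMSO (8.04 and 7.45) and 6.22 with PD325901 (12.2 and 13.2). What sets these libraries apart was not tested, and results that rest on them are given with and without them. As percentages of DMSO, the group sums were 47.6% with PD325901, 33.7% with RAD001 and 42.2% with GDC0941, and 48.1%, 27.8% and 32% when replicate 1 of every group was left out.

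**Figure D2:**
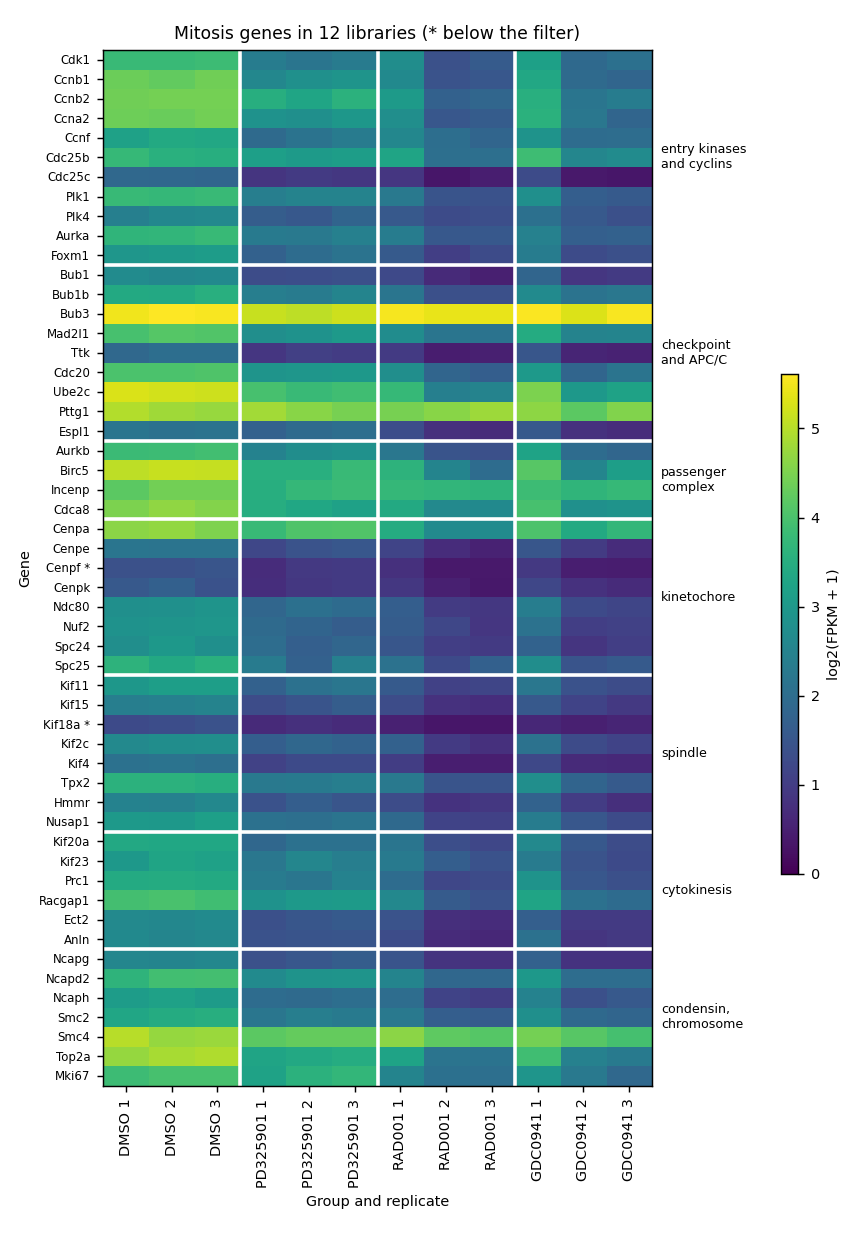
Level of each of the 53 listed genes as log2(FPKM + 1), by colour, with genes in rows grouped by role and the 12 libraries in columns; asterisks mark the 2 genes below the filter. The DMSO columns are the brightest in nearly every row, replicate 1 is brighter than replicates 2 and 3 with RAD001 and GDC0941, and the rows of Bub3 and Pttg1 stay bright throughout.

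The first comparison asked how these genes responded to each inhibitor. Nearly all of them were lower with each of the 3. Values of log2(FPKM + 1) were fitted with limma over all 10305 genes and 12 libraries, and a gene is said to have fallen or risen when its Benjamini-Hochberg adjusted p was below 0.05. The fit pools the spread of a gene over all 4 groups. The spread among RAD001 and GDC0941 libraries therefore also enters the SEs and p-values of PD325901 against DMSO. With PD325901, 46 of the 51 genes fell and 0 rose, while 28.2% of all genes tested fell and 18.4% rose (1893 rose and 2909 fell, or 2675 and 2455 after quantile normalization). With RAD001, 49 fell and 0 rose, against 15.9% and 15.4% of all genes. With GDC0941, 48 fell and 0 rose, against 12.7% and 11.6%. The median log2 change of the 51 genes was -1.04 with PD325901, -1.68 with RAD001 and -1.36 with GDC0941, where the medians of all genes were -0.06, 0.00 and 0.02. Every log2 change of the 51 genes against DMSO was below 0, so limma found 0 of them higher at an unadjusted p under 0.05 as well. All 3 libraries of the inhibitor lay below all 3 DMSO libraries for 50 genes with PD325901 (36.9% of all genes), 49 with RAD001 (25.6%) and 49 with GDC0941 (18.3%). Because the RNA came from whole cultures, fewer cells in G2 and mitosis and less of these RNAs in each cell cannot be told apart. The 3 comparisons share the DMSO libraries.

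The filter bears on these counts. Cdc25c, Ttk, Cenpk and Kif4 averaged below 1 FPKM over the 9 inhibitor libraries (0.684, 0.824, 0.745 and 0.913) and passed only through DMSO, so they had to be lower than DMSO and their falls are descriptions. Of the 47 other genes, 42 fell with PD325901, 45 with RAD001 and 44 with GDC0941. With no filter on low values, 46, 50 and 50 of all 53 listed genes fell, against 18.7%, 11% and 9.14% of all genes then tested.

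In percent of the DMSO mean, the median gene stood at 40.5% with PD325901, 22.1% with RAD001 and 32.4% with GDC0941 (42.2%, 15.4% and 20.5% without replicate 1 of every group). The range was wide: from 28.8% (Bub1) to 86.4% (Pttg1) with PD325901, from 14.7% (Bub1) to 94.1% (Bub3) with RAD001, and from 22.8% (Spc24) to 95.4% (Bub3) with GDC0941. Below 50% were 42 genes with PD325901, 47 with RAD001 and 45 with GDC0941, counts for which no share of all genes was computed. The DMSO mean itself spanned 45.8 FPKM for Bub3, 36.6 for Ube2c and 33.2 for Birc5 down to 2.65 for Cdc25c and 1.97 for Cenpk. The addition of 1 FPKM before taking logs understates the change of the low ones: with 0.1 FPKM in its place the median log2 changes were -1.29 with PD325901 and -2.22 with RAD001, and with 5 FPKM they were -0.63 and -0.91.

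**Figure D3:**
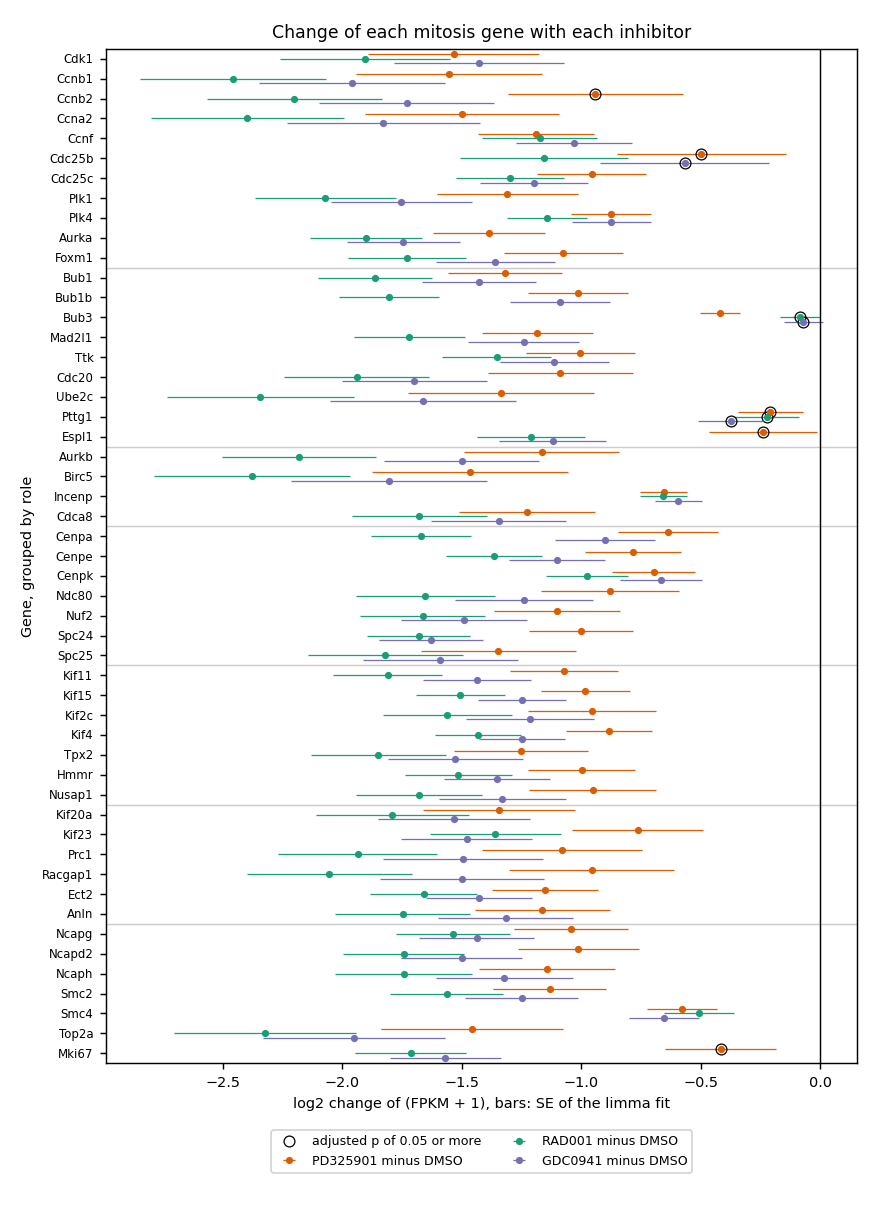
Log2 change of (FPKM + 1) against DMSO for each of the 51 genes, grouped by role, with points for PD325901, RAD001 and GDC0941, bars of 1 standard error from limma and rings around changes with an adjusted p of 0.05 or more. Points lie left of 0 throughout, from about the median of -1.04 with PD325901 to that of -1.68 with RAD001, and the ringed points include Bub3, Pttg1, Espl1, Mki67 and Cdc25b.

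The role group of entry genes holds kinases, cyclins, phosphatases and the transcription factor gene Foxm1. In it, 9 of 11 genes fell with PD325901, 11 with RAD001 and 10 with GDC0941, with median log2 changes of -1.19, -1.90 and -1.43. Of all genes tested, 28.2%, 15.9% and 12.7% fell, the shares to set beside the counts of every role group below. Cyclin B1 and its kinase Cdk1 form the complex that starts mitosis. Ccnb1 stood at 19.3, 18.3 and 19.9 FPKM in DMSO replicates 1, 2 and 3, at 5.05, 6.05 and 6.52 with PD325901, at 5.35, 1.71 and 1.87 with RAD001, and at 9.27, 2.81 and 2.53 with GDC0941. All 9 inhibitor libraries were well under the DMSO libraries, and the RAD001 and GDC0941 values other than replicate 1 were the lowest. Its log2 changes were -1.56 ± 0.39 (SE, adjusted p = 0.00695), -2.46 ± 0.39 (0.000947) and -1.96 ± 0.39 (0.00447). Cdk1 stood at 13, 13 and 13.4 FPKM in DMSO, at 4.08, 3.55 and 4.04 with PD325901, at 5.77, 1.61 and 2.05 with RAD001, and at 8.14, 2.80 and 3.18 with GDC0941. Its PD325901 libraries lay close together, while the replicate 1 libraries of the other inhibitors stood well above their partners. The Cdk1 changes were -1.53, -1.91 and -1.43, and the last of these missed the threshold without GDC0941 replicate 2 (-1.19) or 3 (-1.26), at adjusted p of up to 0.0576 over all 24 alternatives.

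Cyclin A2, which partners CDK2 in S phase and CDK1 in G2, behaved like cyclin B1. Ccna2 stood at 19.7, 19.1 and 20.3 FPKM in DMSO, at 6.26, 5.88 and 6.84 with PD325901, at 5.78, 1.86 and 2.12 with RAD001, and at 11.0, 3.66 and 2.53 with GDC0941, and fell in all 3 comparisons (-1.5, -2.40 and -1.83). Ccnb2, the Golgi-associated B cyclin, stood at 19.9, 20.6 and 20.6 FPKM in DMSO, at 10.4, 8.89 and 11.2 with PD325901, at 7.28, 2.36 and 2.62 with RAD001, and at 10.5, 3.52 and 4.12 with GDC0941. It kept more of its level with PD325901 than the other cyclins did, at 49.9% of DMSO against 30.7% for Ccnb1 and 32.1% for Ccna2, a difference between genes that was not tested. Its PD325901 change (-0.94 ± 0.37) missed the threshold at adjusted p = 0.0531, although its libraries did not overlap with DMSO. That SE rests on a spread pooled over all 4 groups. The SDs of Ccnb2 were 0.41 FPKM in DMSO and 1.17 with PD325901, against 2.77 with RAD001 and 3.89 with GDC0941. The replicate number may pair the PD325901 and DMSO libraries, and with it as a block the adjusted p was 0.0170.

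Cdc25b, a phosphatase that removes the inhibitory phosphates from CDK1, was the least changed gene of this group with PD325901 and GDC0941. It stood at 12.4, 10.9 and 10.5 FPKM in DMSO, at 7.94, 7.31 and 7.75 with PD325901, at 8.62, 3.16 and 3.15 with RAD001, and at 13.6, 4.95 and 5.48 with GDC0941. GDC0941 replicate 1 was above every DMSO library, whereas the other inhibitor libraries were below them all. It fell with RAD001 (-1.16 ± 0.35, adjusted p = 0.0282). That call was lost without any 1 of the DMSO libraries, without RAD001 replicate 2 or 3, or with no filter, at adjusted p of up to 0.107. The changes with PD325901 (-0.50 ± 0.35) and GDC0941 (-0.57 ± 0.35) did not pass (adjusted p = 0.269 and 0.273), but without replicate 1 of every group Cdc25b fell with all 3.

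The other entry genes fell with each inhibitor. They were Plk1 (-1.31, -2.07 and -1.75 with PD325901, RAD001 and GDC0941), the polo kinase of mitotic entry, Plk4 (-0.88, -1.14 and -0.87), the kinase of centriole duplication, and Aurka (-1.39, -1.90 and -1.74), the centrosomal Aurora kinase. The F-box cyclin Ccnf changed by -1.19, -1.18 and -1.03, and the phosphatase gene Cdc25c by -0.96, -1.30 and -1.20. Cdc25c passed the filter through DMSO alone, and its fall is a description. Foxm1, which encodes the activator of this gene class, went from 7.19 ± 0.42 FPKM (SD, n = 3) in DMSO to 2.91 ± 0.52 with PD325901, 1.5 ± 0.47 with RAD001 and 2.39 ± 1.51 with GDC0941.

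The spindle checkpoint and the anaphase-promoting complex (APC/C) held some of the exceptions, besides Ccnb2, Cdc25b and Mki67 in other role groups. Of 9 genes, 7 fell with each inhibitor, with median log2 changes of -1.02, -1.72 and -1.12. Bub3, a checkpoint adaptor that also has partners outside mitosis, was the most abundant of all 51 genes. It stood at 43.9, 47.8 and 45.6 FPKM in DMSO, at 34.4, 32.1 and 35.5 with PD325901, at 45.0, 42.0 and 42.1 with RAD001, and at 46.6, 38.6 and 45.7 with GDC0941. The PD325901 libraries were below all others, and those of RAD001 and GDC0941 overlapped with DMSO. It fell with PD325901 (-0.42 ± 0.08, adjusted p = 0.00186). With RAD001 the change was -0.09 (95% interval -0.27 to 0.10) and with GDC0941 -0.07 (-0.25 to 0.11), and neither passed (adjusted p = 0.454 and 0.578).

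Pttg1 encodes securin, the inhibitor that holds separase until anaphase. It stood at 29.99, 27.2 and 25.9 FPKM in DMSO, at 27.4, 23.3 and 21.0 with PD325901, at 21.0, 23.3 and 26.6 with RAD001, and at 24.1, 17.4 and 22.3 with GDC0941. Its libraries overlapped with DMSO for PD325901 and RAD001, and lay just below for GDC0941. The changes were -0.21 (95% interval -0.50 to 0.09), -0.23 (-0.52 to 0.07) and -0.38 (-0.67 to -0.08), with adjusted p = 0.227, 0.226 and 0.0640. The GDC0941 change passed after median-ratio scaling, after quantile normalization, with library weights and without GDC0941 replicate 1, and its adjusted p ranged from 0.0101 to 0.216 over the 24 alternatives. Reads of Pttg1 could be shared with related sequences, and how the authors counted such reads is not given in the sources used here.

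Espl1, the gene of separase, which cuts cohesin at anaphase, was lower with RAD001 and GDC0941 than with PD325901. It stood at 3.55, 3.29 and 3.41 FPKM in DMSO, at 2.32, 2.85 and 3.07 with PD325901, at 1.52, 0.714 and 0.606 with RAD001, and at 1.97, 0.734 and 0.627 with GDC0941. The PD325901 libraries sat below DMSO and above every other inhibitor library. The PD325901 change of -0.24 (95% interval -0.74 to 0.25) did not pass (adjusted p = 0.406), and the changes with RAD001 (-1.21 ± 0.23) and GDC0941 (-1.12 ± 0.23) did. PD325901 exceeded RAD001 by 0.97 ± 0.23 (adjusted p = 0.00399) and GDC0941 by 0.88 ± 0.23 (0.00682).

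The remaining checkpoint and APC/C genes fell with all 3 inhibitors. Bub1, a checkpoint kinase, went from 5.55, 5.06 and 5.30 FPKM in DMSO to 1.48, 1.52 and 1.59 with PD325901, to 1.35, 0.578 and 0.406 with RAD001, and to 2.54, 0.859 and 0.948 with GDC0941. It had the lowest percentage of DMSO of any of the 51 genes with PD325901 and with RAD001. Bub1b (BubR1) stood at 9.55, 9.4 and 10.6 FPKM in DMSO, at 4.29, 4.03 and 4.79 with PD325901, at 3.53, 1.57 and 1.57 with RAD001, and at 5.45, 3.39 and 3.65 with GDC0941. Its mean with GDC0941 (4.17 FPKM) was nearer to that with PD325901 (4.37) than to that with RAD001 (2.22). Mad2l1, which blocks the APC/C at the checkpoint, changed by -1.19, -1.72 and -1.24, and Ttk, the kinase MPS1 that starts the checkpoint signal, by -1.0, -1.35 and -1.11. Since Ttk passed the filter through DMSO alone, its fall is a description. Cdc20, the activator of the APC/C, changed by -1.09, -1.94 and -1.70, and Ube2c, which gives the APC/C its ubiquitin, by -1.34, -2.34 and -1.66.

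All 4 genes of the chromosomal passenger complex, which corrects faulty attachments and drives cytokinesis, fell with each inhibitor (medians -1.20, -1.93 and -1.42). Birc5, the survivin gene, stood at 32, 34.0 and 33.5 FPKM in DMSO, at 10.7, 10.7 and 12.9 with PD325901, at 11.4, 4.8 and 2.96 with RAD001, and at 16.9, 4.89 and 7.90 with GDC0941. Incenp, the scaffold of the complex, stood at 17.4, 20.4 and 20.5 FPKM in DMSO, at 10.4, 12.3 and 13.2 with PD325901, at 12.4, 12 and 11.4 with RAD001, and at 13.3, 11.7 and 12.6 with GDC0941. The inhibitor libraries of Birc5 spread over several fold, and those of Incenp lay within a narrow band below DMSO. Incenp fell by nearly the same amount with each (-0.66, -0.66 and -0.60, SE 0.10), and none of its differences between inhibitors passed, with 95% intervals of -0.21 to 0.22 for PD325901 against RAD001, -0.28 to 0.15 for PD325901 against GDC0941 and -0.15 to 0.28 for GDC0941 against RAD001. Aurkb, the kinase of the complex, changed by -1.17, -2.18 and -1.50, and Cdca8 (borealin) by -1.23, -1.68 and -1.35.

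At the kinetochore and centromere, all 7 genes above the filter fell with each inhibitor (medians -0.88, -1.66 and -1.24). Cenpa, the histone H3 variant that marks centromeres, stood at 23.9, 25 and 22 FPKM in DMSO, at 12.7, 15.8 and 16.1 with PD325901, at 9.97, 5.42 and 5.53 with RAD001, and at 15.5, 9.57 and 12.1 with GDC0941. RAD001 replicates 2 and 3 were its lowest libraries, and those of PD325901 and GDC0941 overlapped. Its PD325901 change (-0.64 ± 0.21, adjusted p = 0.0264) missed the threshold without DMSO replicate 1 (-0.63), DMSO replicate 2 (-0.60) or PD325901 replicate 1 (-0.54), at adjusted p of up to 0.0913. The NDC80 complex, which couples kinetochores to microtubules, fell as a whole: Ndc80 by -0.88, -1.65 and -1.24, Nuf2 by -1.10, -1.66 and -1.49, Spc24 by -1.0, -1.68 and -1.63 and Spc25 by -1.35, -1.82 and -1.59. The Ndc80 change with PD325901 was lost without any 1 of the DMSO or PD325901 libraries or with a pseudocount of 0.1 FPKM (adjusted p of up to 0.0733). Spc25 stood at 11.3, 9.4 and 10.8 FPKM in DMSO, at 4.07, 2.33 and 4.44 with PD325901, at 3.33, 1.39 and 2.31 with RAD001, and at 5.69, 1.75 and 2.00 with GDC0941. The motor gene Cenpe changed by -0.78, -1.36 and -1.10, and Cenpk, of the inner kinetochore, by -0.70, -0.98 and -0.67 from a DMSO level of 1.97 FPKM, through which alone it passed the filter. The last of these missed the threshold without DMSO replicate 2, GDC0941 replicate 2 or GDC0941 replicate 3 (adjusted p of up to 0.0681).

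Of the 2 genes below the filter, Cenpf belongs to the kinetochore and Kif18a is a kinesin that shortens spindle microtubules. Cenpf averaged 1.69 ± 0.09 FPKM (SD, n = 3) in DMSO, 0.828 ± 0.16 with PD325901, 0.441 ± 0.23 with RAD001 and 0.549 ± 0.31 with GDC0941. Kif18a averaged 1.51 ± 0.15 FPKM in DMSO, 0.643 ± 0.06 with PD325901, 0.319 ± 0.10 with RAD001 and 0.483 ± 0.07 with GDC0941. With no filter on low values both fell with each inhibitor, Cenpf by -0.56, -0.91 and -0.82 and Kif18a by -0.61, -0.93 and -0.76. Their means over the 12 libraries, 0.877 and 0.740 FPKM, put them just outside the threshold, and the other 51 genes are those that passed it.

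All 7 genes of spindle motors and microtubule proteins above the filter fell with each inhibitor (medians -0.98, -1.56 and -1.33). Kif4 among them passed the filter only through DMSO, so its fall is a description. Tpx2, which activates Aurora A on spindle microtubules, stood at 11.2, 11.2 and 10.4 FPKM in DMSO, at 3.82, 3.96 and 4.26 with PD325901, at 3.79, 1.74 and 1.76 with RAD001, and at 5.85, 2.48 and 1.98 with GDC0941. Nusap1, a microtubule bundling protein, stood at 7.06, 6.95 and 7.94 FPKM in DMSO, at 3.27, 3.13 and 3.48 with PD325901, at 2.77, 1.17 and 1.13 with RAD001, and at 4.12, 1.88 and 1.44 with GDC0941. In both, PD325901 libraries were tight and those of RAD001 and GDC0941 were split by replicate 1. The kinesin genes moved by similar amounts: Kif11 (Eg5, which pushes spindle poles apart) by -1.07, -1.81 and -1.44, Kif15 by -0.98, -1.51 and -1.25, Kif2c (MCAK, a microtubule depolymerase) by -0.96, -1.56 and -1.22, and Kif4, a chromokinesin, by -0.89, -1.43 and -1.25. Hmmr, a spindle protein that binds hyaluronan, changed by -1.0, -1.52 and -1.35.

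The 6 cytokinesis genes also fell with each inhibitor (medians -1.12, -1.77 and -1.49). Racgap1, part of centralspindlin, stood at 14.3, 14.9 and 13.8 FPKM in DMSO, at 6.22, 7.20 and 7.29 with PD325901, at 5.14, 2.06 and 1.67 with RAD001, and at 8.66, 3.25 and 2.87 with GDC0941. Prc1, which bundles the microtubules of the central spindle, stood at 9.70, 9.86 and 9.59 FPKM in DMSO, at 4.05, 3.62 and 4.57 with PD325901, at 2.92, 1.29 and 1.45 with RAD001, and at 6.39, 1.89 and 1.58 with GDC0941. No inhibitor library of either gene reached a DMSO library. Kif23, the motor partner of Racgap1, stood at 6.90, 8.70 and 8.31 FPKM in DMSO, at 3.66, 4.94 and 4.27 with PD325901, at 3.96, 2.17 and 1.68 with RAD001, and at 4.02, 1.72 and 1.41 with GDC0941. The PD325901 changes of Racgap1 (-0.96 ± 0.34) and Kif23 (-0.76 ± 0.27) were lost without any 1 of the DMSO or PD325901 libraries, with no filter or with a pseudocount of 0.1 FPKM, at adjusted p of up to 0.0996 and 0.112, and that of Prc1 (-1.08 ± 0.33) without DMSO replicate 2 or PD325901 replicate 2 (up to 0.0628). Kif20a, the motor that carries the passenger complex to the midzone, changed by -1.35, -1.79 and -1.53. Ect2, the exchange factor for RhoA, changed by -1.15, -1.66 and -1.43, and Anln (anillin) by -1.16, -1.75 and -1.32.

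Of 7 genes of condensin and chromosome structure, 6 fell with PD325901 and all 7 with RAD001 and with GDC0941 (medians -1.04, -1.71 and -1.44). Top2a, the topoisomerase that untangles sister chromatids, stood at 25.4, 28.2 and 29.6 FPKM in DMSO, at 8.73, 9.48 and 10.2 with PD325901, at 8.57, 3.48 and 3.38 with RAD001, and at 13.8, 4.54 and 3.97 with GDC0941. Smc4, an ATPase shared by both condensins, stood at 31.0, 25.4 and 26.3 FPKM in DMSO, at 17.3, 18.3 and 18.5 with PD325901, at 23.7, 17.5 and 16.6 with RAD001, and at 20.6, 16.7 and 14.5 with GDC0941. Top2a lost most of its level, whereas Smc4 remained at 65.5%, 69.9% and 62.6% of DMSO. The Smc4 change with RAD001 (-0.51 ± 0.15, adjusted p = 0.0219) missed the threshold without DMSO replicate 1 (-0.42), RAD001 replicate 2 (-0.45) or RAD001 replicate 3 (-0.41), at adjusted p of up to 0.0886. The partner ATPase Smc2 changed by -1.13, -1.56 and -1.25. The condensin I subunits changed by -1.04, -1.54 and -1.44 (Ncapg), by -1.01, -1.74 and -1.50 (Ncapd2) and by -1.14, -1.74 and -1.32 (Ncaph).

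Mki67 encodes Ki-67, the protein that coats mitotic chromosomes and is stained in pathology to count dividing cells. It stood at 13.3, 14.8 and 14.8 FPKM in DMSO, at 8.35, 11.1 and 12.2 with PD325901, at 4.82, 3.2 and 3.14 with RAD001, and at 6.56, 3.84 and 2.73 with GDC0941. PD325901 libraries lay below DMSO and above every RAD001 and GDC0941 library. The PD325901 change (-0.42, 95% interval -0.93 to 0.09) did not pass (adjusted p = 0.160), and those with RAD001 (-1.71 ± 0.23, 0.000386) and GDC0941 (-1.57 ± 0.23, 0.000907) did. With library weights, in a fit of only PD325901 and DMSO, or without the replicate 1 libraries of RAD001 and GDC0941, the PD325901 change passed, lower (adjusted p over the 24 alternatives from 0.0117 to 0.413).

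**Figure D4:**
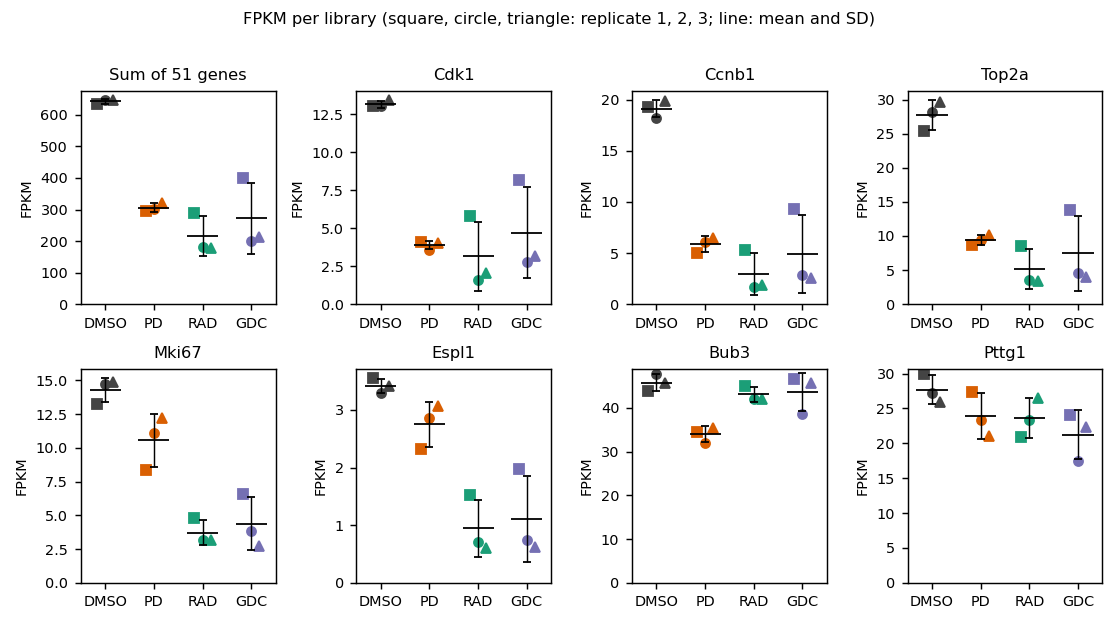
FPKM in each library for the sum of the 51 genes and for 7 of them, by group; square, circle and triangle are replicates 1, 2 and 3, and the lines show the mean and SD of 3 libraries. Squares are high with RAD001 and GDC0941 for the sum, Cdk1, Ccnb1 and Top2a; Mki67 and Espl1 sit nearest to DMSO with PD325901, and Bub3 and Pttg1 move little.

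The second comparison asked whether the inhibitors differed from each other. In the order of group means, DMSO was highest for all 51 genes, and 40 genes followed the order DMSO, PD325901, GDC0941, RAD001. The share of all genes in that order was not computed. In replicate 1 alone, PD325901 was above GDC0941 for 4 of the 51 genes (41.2% of all genes). The neighbours in that order were mostly not apart by the test. Between PD325901 and GDC0941, 4 genes were higher with PD325901 and 1 was lower (medians 0.28 for the 51 genes and -0.07 for all genes), against 20.9% higher and 30.7% lower among all genes tested. The 4 were Mki67 (1.15 ± 0.23, adjusted p = 0.00157), Espl1 (0.88 ± 0.23, 0.00682), Spc24 (0.63 ± 0.22, 0.0300) and Kif23 (0.72 ± 0.27, 0.0461), and the lower gene was Bub3 (-0.35 ± 0.08, 0.00449). The Spc24 call was lost without PD325901 replicate 1 or 3, or GDC0941 replicate 2 or 3 (adjusted p of up to 0.118), and that of Kif23 without any of 9 single libraries or under 3 other settings (up to 0.166). For Cdk1 the difference was -0.11, with a 95% interval of -0.89 to 0.68, which covers both signs.

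Between PD325901 and RAD001, 18 genes were higher with PD325901 and 1 was lower, against 20.8% and 29.4% of all genes, and the medians were 0.60 and -0.06. Mki67 (1.30 ± 0.23, adjusted p = 0.000761), Ccnb2 (1.26 ± 0.37, 0.0137), Racgap1 (1.10 ± 0.34, 0.0202) and Cenpa (1.03 ± 0.21, 0.00168) were among them. The others were Aurkb, Ube2c, Espl1, Cdc20, Bub1b, Ndc80, Kif11, Ncapd2, Nusap1, Spc24, Foxm1, Cenpe, Kif4 and Kif15, and the lower gene was again Bub3 (-0.33 ± 0.08). Replicate numbers may pair these libraries, and with the number as a block 33 genes were higher (22.8% of all genes). Of the 19 calls, 5 were kept under each of the 24 alternatives that tested the gene, those of Mki67, Cenpa, Bub1b, Espl1 and Bub3. Between GDC0941 and RAD001, 2 genes were higher with GDC0941, Cenpa (0.77 ± 0.21, 0.0279) and Bub1b (0.71 ± 0.21, 0.0381), and 0 were lower, against 8.09% and 9.35% of all genes (medians 0.31 and 0.02). Both calls were lost without RAD001 replicate 2 or 3 or GDC0941 replicate 1 or 3, with no filter or in a fit of those groups alone, at adjusted p of up to 0.116 and 0.149, and that of Bub1b also without replicate 2 or 3 of DMSO or PD325901. At an unadjusted p under 0.05, limma also found 0 of the 51 genes lower with GDC0941 than with RAD001.

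These counts turned on replicate 1. Without replicate 1 of every group, 42 genes were higher with PD325901 than with GDC0941 (26.1% of all genes), 47 were higher than with RAD001 (24.6%), and 14 were higher with GDC0941 than with RAD001 (15.4%). With only the replicate 1 libraries of RAD001 and GDC0941 left out, a setting chosen after seeing the data, the counts were 44 (23.9%), 46 (23%) and 13 (8.44%). Leaving out GDC0941 replicate 1 alone gave 29 genes higher with PD325901 than with GDC0941 (21.8% of all genes) and 38 than with RAD001 (22.9%). For PD325901 above RAD001, leaving out RAD001 replicate 1 alone gave 40 genes (19.7%), leaving out RAD001 replicate 2 or 3 gave 4 each (18% and 17.6%), and leaving out PD325901 replicate 2 or 3 gave 6 and 5 (18.2% and 17.4%). The libraries show the same split. In replicates 2 and 3, both PD325901 libraries lay above both GDC0941 libraries for 47 of the 51 genes (34.3% of all genes) and above both RAD001 libraries for 49 (35.7%). In replicate 1, PD325901 was above GDC0941 for 4 of the 51 genes (41.2% of all genes) and above RAD001 for 31 (45.9%). GDC0941 was above RAD001 for 50 genes in replicate 1 (57.8%), and in both of the others for 35 (32.8%). Against DMSO the counts moved less: 48, 49 and 50 genes fell with PD325901, RAD001 and GDC0941 without replicate 1 of every group (33.2%, 24.2% and 23.1% of all genes).

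**Figure D5:**
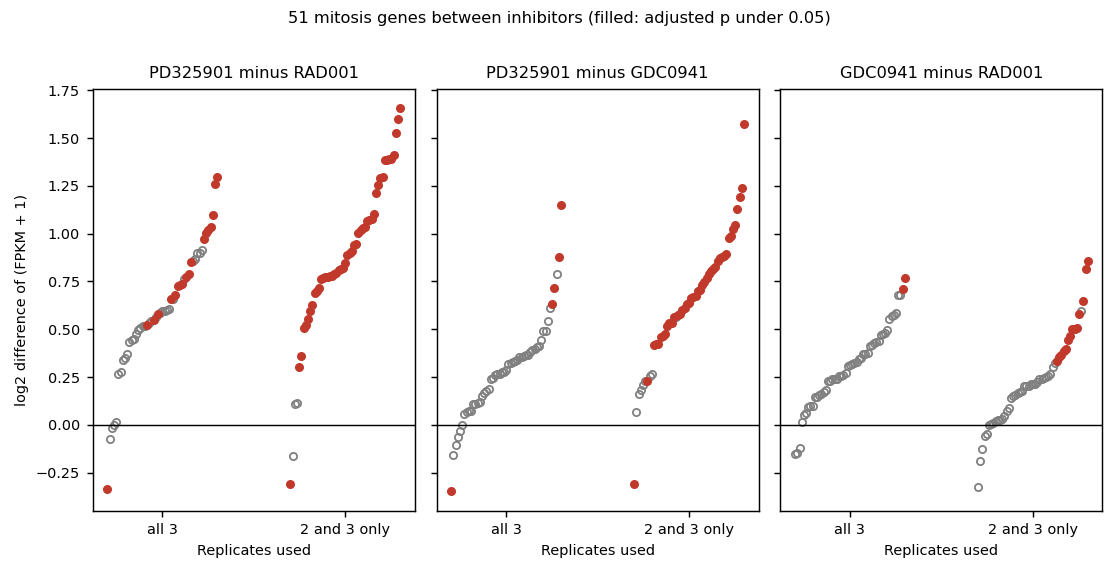
Log2 difference of (FPKM + 1) between inhibitors for the 51 genes, sorted within each column of points, with all 3 replicates and with replicates 2 and 3 only; filled points have an adjusted p under 0.05. The filled points above 0 number 18, 4 and 2 with all replicates (left to right) and 47, 42 and 14 without replicate 1.

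The calls of Mki67 and Bub3 between PD325901 and the other inhibitors were among those that did not depend on replicate 1. For PD325901 against RAD001, those of Espl1, Cenpa and Bub1b were also kept without it. Without replicate 1 of every group, Mki67 was higher with PD325901 than with GDC0941 by 1.57 ± 0.12 and than with RAD001 by 1.60 ± 0.12, and Bub3 was lower by 0.31 in both (log2 changes of -0.31 ± 0.09). Incenp and Pttg1 did not pass in any comparison between inhibitors, with all libraries or without replicate 1 of every group. Among genes that moved with it, Ccnb1 was higher with PD325901 than with GDC0941 by 0.99 ± 0.09 and than with RAD001 by 1.39 ± 0.09 once replicate 1 was left out.

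The 51 genes varied together across libraries. As a description, the median Pearson correlation of log2(FPKM + 1) over all pairs of genes was 0.961 over the 12 libraries, and 0.917 after the group means were removed, so that the genes also varied together within groups, where replicate 1 of RAD001 and GDC0941 carries much of the spread. The libraries are shared by all pairs. These correlations were not computed for other genes, so whether they are particular to the 51 genes was not tested. The correlation with the mean of the other genes was at least 0.9 for 44 genes and lowest for Bub3 (0.281) and Pttg1 (0.523). Incenp (0.861), Smc4 (0.867), Cdc25b (0.881), Mki67 (0.891) and Espl1 (0.895) were also below 0.9.

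Other genes of mitosis that were not on the list (93 genes, of which 83 were above the filter) had smaller median changes. With PD325901, 60 fell and 2 rose, with RAD001 57 fell and 1 rose, and with GDC0941 50 fell and 2 rose, with median log2 changes of -0.63, -0.67 and -0.64. Among all genes tested the shares that fell were 28.2%, 15.9% and 12.7%. Those that rose, named after their values were seen, were Cenpo and Anapc13 with PD325901 (0.28 and 0.37), Zwint with RAD001, and Ensa and Anapc2 with GDC0941 (0.28 and 0.30). Cks1b, Kpna2, Zwint and Tubb5 are named for the smallest adjusted p of the list with PD325901. A strong PD325901 change was thus selected for, and its contrast with the other inhibitors is a description. Cks1b, a small subunit of cyclin-dependent kinases, changed by -1.66 ± 0.23, -1.65 ± 0.23 and -0.94 ± 0.23. Kpna2, an importin, fell by 1.12, 0.64 and 0.72 on the log2 scale. The kinetochore gene Zwint fell with PD325901 (-0.74 ± 0.08), rose with RAD001 (0.40 ± 0.08, adjusted p = 0.00360) and changed by 0.02 with GDC0941. Tubb5, a beta-tubulin gene, averaged 251 ± 10.9 FPKM (SD, n = 3) in DMSO and 116 ± 5.92 with PD325901, but 239 ± 44.4 with RAD001 and 230 ± 7.61 with GDC0941, and fell only in the PD325901 comparison (-1.11 ± 0.11), with changes of -0.09 and -0.12 that did not pass in the others.

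Of 21 genes for E2F, RB and MuvB regulators, 19 were above the filter. With PD325901, 9 of these fell and 2 rose, and 6 fell and 0 rose with each of RAD001 and GDC0941, with medians of -0.34, -0.10 and -0.10. Among all genes tested 28.2%, 15.9% and 12.7% fell and 18.4%, 15.4% and 11.6% rose. At an unadjusted p under 0.05, limma found 1 of the 19 higher with RAD001 and 0 with GDC0941. Mybl2, E2f3, E2f6 and E2f5 are likewise named for the smallest adjusted p with PD325901, so a strong PD325901 change was selected for. Mybl2, the gene of B-MYB, averaged 4.69 ± 0.58 FPKM (SD, n = 3) in DMSO, 1.19 ± 0.19 with PD325901, 1.02 ± 0.45 with RAD001 and 1.37 ± 0.95 with GDC0941, and fell in all 3 comparisons (-1.38, -1.51 and -1.33). E2f3, an activating E2F, fell with PD325901 (-0.94 ± 0.08) and changed by 0.13 and 0.02 with RAD001 and GDC0941. E2f6, a repressor, and E2f5, which acts with the pocket proteins, changed by -0.58 and -0.70 with PD325901. The 2 that rose, named after their values were seen, were Rbl2 (0.37), the gene of the DREAM pocket protein p130, and E2f2 (0.56), which fell with RAD001 (-0.58) and GDC0941 (-1.33).

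Of 8 genes that identify these leukaemia cells, 2 rose and 2 fell with PD325901 (18.4% and 28.2% of all genes), 3 rose and 3 fell with RAD001 (15.4% and 15.9%), and 1 rose and 3 fell with GDC0941 (11.6% and 12.7%). The list is too short, and its PD325901 counts too near those shares, to say anything of the list as a whole. Its members went different ways. The integrin gene Itgam changed by -0.56 with PD325901, 1.27 with RAD001 and 0.67 with GDC0941, all called. The receptor gene Csf1r rose with PD325901 (0.68) and RAD001 (0.85), and its change of 0.31 with GDC0941 did not pass. Ptprc, the gene of CD45, rose with PD325901 (0.50) and RAD001 (0.47), and its change of 0.12 with GDC0941 did not pass. The granule genes Mpo and Elane fell with RAD001 (-3.07 and -4.24) and GDC0941 (-2.29 and -3.26), and their changes of -0.25 and -0.21 with PD325901 did not pass. Ctsg, another granule protease gene, fell with all 3 (-1.94, -3.31 and -3.20). Hoxa9 and Meis1 did not pass in any of the 3 comparisons, with changes between -0.23 and -0.05. The part of such changes in the level of the mitosis genes was not tested.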

How the data were processed

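RNA of 12 libraries (4 groups of 3) was sequenced after preparation with standard Illumina protocols, per the labels' protocols. The authors deposited 1 table of FPKM values, for which the submitters' processing notes name TopHat2 2.0.4, Cuffdiff and the mm9 build. Not given in the sources used here are the annotation, the version of Cuffdiff, the strand of the libraries, the handling of reads shared by similar genes and how libraries were scaled to each other.

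The 10305 of 23234 genes whose mean reached 1 FPKM were analysed as log2(FPKM + 1) in R 4.3.3 with limma 3.58.1: 4 group means, 8 residual degrees of freedom, eBayes with a trend, 6 two-sided comparisons, Benjamini-Hochberg adjustment within each over all genes and a threshold of 0.05. Fold changes are on the log2(FPKM + 1) scale, which understates the change of low genes. SDs were taken over the FPKM of a group, and SEs from limma. The procedure was tested on simulated data.

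The genes, their role groups and the other lists were chosen with earlier results of these data known. Values in every library are given for the 2 most abundant genes of each role group, the 3 largest called changes each way in each comparison and up to 5 genes not called against DMSO, and, chosen after its values were seen, for Bub1. From each other list, up to 4 genes with the smallest adjusted p for PD325901 are named, besides those said to be named after their values were seen and all 8 of the leukaemia cell genes.

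As a check of pairing, deviations from the group means were correlated over genes between libraries of the same number. All 3 pairs were above 0.1 for PD325901 with DMSO (r = 0.183 to 0.316), RAD001 with DMSO (0.201 to 0.379), PD325901 with RAD001 (0.149 to 0.345) and GDC0941 with RAD001 (0.309 to 0.583), but not for GDC0941 with DMSO (0.035 to 0.303) or PD325901 with GDC0941 (-0.139 to 0.261). The labels name no pairs, so the block was fitted as an alternative. The 24 alternatives were library weights, the replicate block, a pseudocount of 0.1 or of 5 FPKM, a filter at 5 FPKM or none, quantile normalization, median-ratio scaling, a fit of only the groups compared, eBayes without a trend, leaving out each of the 12 libraries, leaving out replicate 1 of every group, and, chosen after seeing the data, leaving out replicate 1 of RAD001 and GDC0941. Promoters were searched by exact letters on both strands.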

Additional observations from a re-analysis of the deposited data

How the results depend on the processing

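Against DMSO, 41 of 46 calls with PD325901, 47 of 49 with RAD001 and 46 of 48 with GDC0941 were kept under each of the 24 alternatives that tested the gene. Leaving out 1 library at a time gave 41 to 47, 47 to 49 and 46 to 50 genes lower. Of all 10305 genes, 2401 to 3152, 1134 to 1889 and 953 to 1758 were then lower. With a filter at 5 FPKM, which left 26 genes to test, 22, 24 and 23 were lower (2281, 1102 and 814 of all 7551 genes). The PD325901 median of the 26 genes was -1.15. The medians were -1.29 (PD325901) and -2.22 (RAD001) with a pseudocount of 0.1 FPKM, and -0.63 and -0.91 with 5 FPKM. The Bub3 change with GDC0941 ran from -0.12 without GDC0941 replicate 1 to 0.013 without replicate 2, and was not called in either.

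Between inhibitors the counts moved more, and the cause was not tested. For PD325901 above GDC0941 (4 genes) they were 2 with no filter, 1 with a filter at 5 FPKM, 2 in a fit of those groups alone, 31 with library weights, 2 to 29 with 1 library left out, and 42 and 44 without replicate 1 of every group and of RAD001 and GDC0941. In the same order, 2725 of 16474, 1557 of 7551 and, of 10305, 1897, 2455, 1834 to 2246, 2687 and 2465 of all genes were higher. For PD325901 above RAD001 (18 genes) they were 9 with a filter at 5 FPKM, 33 with the replicate block, 46 with library weights, 4 to 40 with 1 library left out, and 47 and 46. Over all genes these settings gave 1518 of 7551 and, of 10305, 2349, 3105, 1792 to 2361, 2533 and 2373. For GDC0941 above RAD001 (2 genes) they were 0 with no filter, 0 in a fit of those groups alone, 9 with library weights, 0 to 4 with 1 library left out, and 14 and 13. Over all genes these settings gave 652 of 16474 and, of 10305, 247, 1328, 336 to 908, 1584 and 870. The median for GDC0941 against RAD001 ran from -0.000333 without GDC0941 replicate 1 to 0.53 without RAD001 replicate 1.

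With the replicate block, 47, 49 and 48 genes were lower than in DMSO with PD325901, RAD001 and GDC0941, and the number higher was 5 for PD325901 against GDC0941, where Ccnb2 was added, and 2 for GDC0941 against RAD001. Of all 10305 genes, 3143, 1898 and 1545 were lower and 2321 and 1093 higher in these comparisons. The block changed no call other than those of Ccnb2 and the 15 genes added for PD325901 against RAD001. The labels name no pairs. In 2 of the 6 comparisons, PD325901 with DMSO and GDC0941 with RAD001, all 3 libraries of the first-named group correlated best with their own number in the second. For PD325901 with RAD001, 1 of the 3 did. The check was not made from the second group to the first. Since the table gives no counts, how far depth limits the low genes cannot be computed: 3, 9 and 4 of the 51 genes averaged below 1 FPKM with PD325901, RAD001 and GDC0941. Groups of 3 libraries limit the precision throughout.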
